A study of Mus musculus with 2 samples.

Results

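10 genes that act in spermatogonia and at the entry into meiosis were followed across the germ cells of adult mouse testis. They were Dmrt1, Stra8, Rhox13, Dazl, Kit, Sohlh1, Uchl1, Mki67, Meioc and Tex101, chosen by symbol. The symbol list of the series is shorter than its count matrix, and a gene was read only where 1 matrix row could belong to it. This held for 5 of the 10 genes, Stra8, Dazl, Tex101, Kit and Uchl1, and for 5476 of the 25065 symbols in all.

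The study sequenced single testis cells of mice aged 10 to 12 weeks (C57BL/6 in the labels, C57BL/6N in the methods) on a microwell platform. The WT library was made from normal adult testes, and the KO library from testes of Tex13a-knocked-out mice, in which CRISPR/Cas9 removed the reading frames of Tex13a. Each library was pooled from 3 testes of 3 mice, so each genotype had 1 library, and what differs with the genotype cannot be told apart from what differs with the library. The WT library held 5170 cells with 45568532 UMIs (unique molecular identifiers, each standing for 1 captured transcript) and the KO library 7238 cells with 67734689 UMIs, and the libraries shared 0 cell barcodes.

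The authors' cell table sorts the cells into 13 clusters, from spermatogonia (Sg) over spermatocytes (Sc1, Sc2) and a mixed cluster of spermatocytes and early spermatids (Sd1) to haploid spermatids (Sd2 to Sd10). Sg had 219 cells in WT and 202 in KO, or 4.24% (95% exact binomial interval 3.70 to 4.82) and 2.79% (2.42 to 3.2) of the library. Sc1 had 130 and 99 cells, or 2.51% (2.11 to 2.98) and 1.37% (1.11 to 1.66). The median cell held 6133 and 5859 UMIs in Sg and 6213 and 6395 in Sc1. The symbol Tex13a itself has 7 possible rows, so the level of the deleted gene was not analysed here. Of the somatic lists, 2 Sertoli genes gave 33 UMIs in WT and 17 in KO in Sg, 2 Leydig genes 2 and 3, and 3 macrophage genes 16 and 9. The 2 peritubular genes gave 23 and 0, all of them Myh11, and no endothelial gene could be read. The spermatid transcripts Prm1, Prm2, Tnp1 and Tnp2 took 3.77% and 3.76% of the Sg UMIs and 3.99% and 4.2% of those in Sc1. Their share was highest in Sd8, at 28.2% and 27.7%. Their part in the values of the 5 genes was not tested, other than by leaving out the cells richest in them.

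In the adult testis, undifferentiated spermatogonia renew themselves or differentiate, and retinoic acid drives both the step to differentiating spermatogonia and the later step into meiosis. Stra8 is the gene induced by retinoic acid at both steps, and its protein works with MEIOSIN to switch on the meiotic programme. Dazl encodes an RNA-binding protein that germ cells need for translation of their transcripts and for competence to answer retinoic acid. Kit encodes the receptor for stem cell factor, which differentiating spermatogonia need to divide and survive, and Uchl1 encodes a ubiquitin hydrolase widely used as a marker of spermatogonia. Tex101 encodes a cell-surface protein of germ cells held by a lipid anchor, which later takes part in the maturation of sperm membrane proteins.

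The promoters are shown because retinoic acid receptors bind repeats of AGGTCA, and Stra8 is the member known for its response to them. The 250 bases before the RefSeq start of each gene follow (GRCm38.p6, 5′ to 3′), with motif matches in capitals.
Stra8 promoter, chr6:34920698-34920947, plus strand: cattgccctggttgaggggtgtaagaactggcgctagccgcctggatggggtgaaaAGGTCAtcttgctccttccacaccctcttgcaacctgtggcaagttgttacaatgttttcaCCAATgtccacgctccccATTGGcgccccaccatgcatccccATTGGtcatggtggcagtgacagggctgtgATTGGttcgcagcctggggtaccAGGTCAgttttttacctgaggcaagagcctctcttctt
Dazl promoter, chr17:50293621-50293870, minus strand: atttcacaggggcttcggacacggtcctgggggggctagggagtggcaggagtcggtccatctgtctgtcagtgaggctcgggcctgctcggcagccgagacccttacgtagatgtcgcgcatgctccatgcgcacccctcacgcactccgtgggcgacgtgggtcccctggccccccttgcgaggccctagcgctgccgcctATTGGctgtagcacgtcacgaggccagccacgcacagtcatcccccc
Tex101 promoter, chr7:24672051-24672300, minus strand: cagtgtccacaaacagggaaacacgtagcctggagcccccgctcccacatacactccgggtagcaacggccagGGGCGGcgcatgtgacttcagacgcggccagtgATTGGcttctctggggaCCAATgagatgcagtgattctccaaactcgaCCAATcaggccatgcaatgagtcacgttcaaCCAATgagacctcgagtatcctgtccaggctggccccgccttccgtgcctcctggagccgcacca
Kit promoter, chr5:75574737-75574986, plus strand: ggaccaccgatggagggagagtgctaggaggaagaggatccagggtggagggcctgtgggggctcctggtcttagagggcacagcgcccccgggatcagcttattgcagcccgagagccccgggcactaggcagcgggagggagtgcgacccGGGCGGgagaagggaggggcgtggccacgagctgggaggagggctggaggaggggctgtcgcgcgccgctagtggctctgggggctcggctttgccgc
Uchl1 promoter, chr5:66675871-66676120, plus strand: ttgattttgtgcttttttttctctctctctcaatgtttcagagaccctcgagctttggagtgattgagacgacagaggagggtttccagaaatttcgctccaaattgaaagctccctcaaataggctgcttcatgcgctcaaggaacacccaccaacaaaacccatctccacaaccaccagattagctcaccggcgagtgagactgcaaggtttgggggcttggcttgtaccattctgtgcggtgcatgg
All 5 genes matched the RefSeq promoter table. Motifs were searched on both strands of the 250 bases before and 50 after the start, as the nuclear receptor site AGGTCA, the CCAAT box, the SP1 site given as GGGCGG, the E-box given as CACGTG, the TATA box given as TATAAA and the motif CNCCTCAG, which is described for STRA8 target promoters. No matches overlapped in the sequences shown. RefSeq and GENCODE place the starts differently, and the printed stretch lies partly or wholly inside the GENCODE gene for Stra8, Dazl, Kit, Uchl1 and Tex101. Stra8 held AGGTCA at bases -194 and -38 (the start being +1), and the other 4 promoters held none. Of all 27025 promoters, 16.0% held it. CCAAT stood at 4 places in Stra8, 4 in Tex101 and 1 in Dazl, and in 37.9% of all promoters. GGGCGG stood once in Kit and once in Tex101, and in 35.9% of all. Dazl held CNCCTCAG at base 16 after its start, outside the printed stretch, as did 7.97% of all promoters in their window. CACGTG and TATAAA, in 7.24% and 14.2% of all promoters, were found in none of the 5. The observed to expected ratio of CpG was 0.27 in Stra8, 0.47 in Uchl1, 0.60 in Kit, 0.64 in Tex101 and 0.71 in Dazl, with a median of 0.38 over all promoters.

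Uchl1 and Kit were highest in Sg, and Stra8, Dazl and Tex101 were highest in Sc1, in both libraries. Among 4973 genes with at least 50 UMIs in each library, 11.2% were highest in Sg, 10.5% in Sc1, 9.37% in Sc2 and 13.4% in Sd1 in both libraries, and 81.7% had the same highest cluster in both. Clusters were formed from the expression of all genes, so a gene's rise in a cluster is given as a description. Levels below are UMIs of the gene per 1000000 UMIs of the cluster (CPM), with 95% Poisson intervals that cover counting error only.

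**Figure D1:**
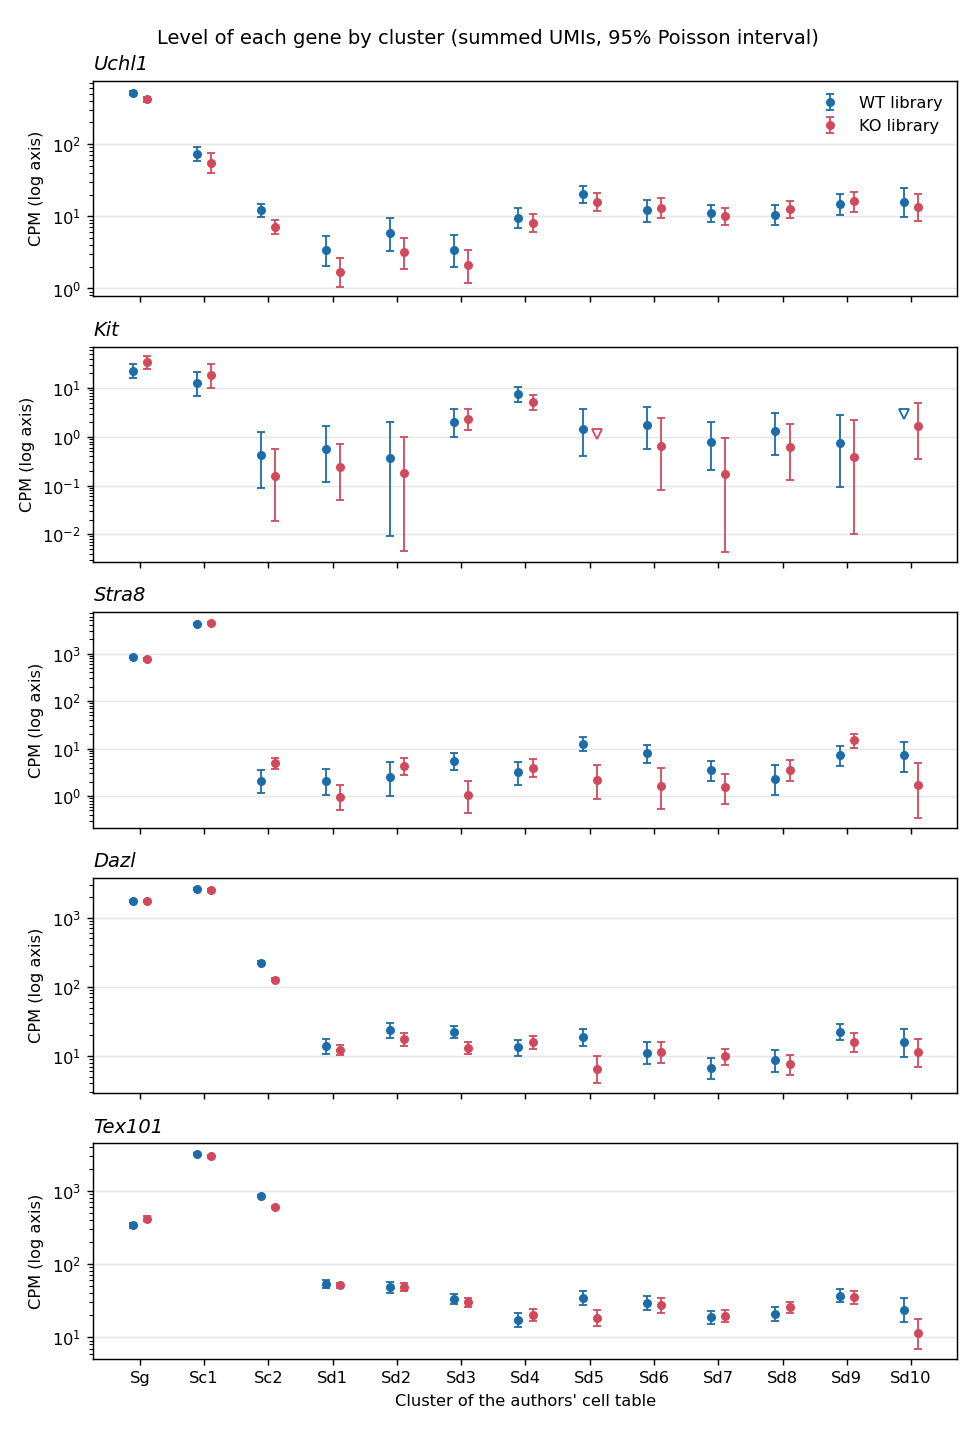
Level of the 5 genes in CPM (log axis) over the 13 clusters, with WT in blue, KO in red and bars for the 95% Poisson interval; an open triangle marks the upper bound where no UMI was seen. Uchl1 and Kit start at their highest level in Sg, Stra8, Dazl and Tex101 peak in Sc1, and Kit and Uchl1 have a second, lower rise in the spermatids.

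Uchl1, on chromosome 5 from 66676091 to 66687234 of the plus strand (GRCm38, 9 exons in its longest coding transcript), was the gene most typical of Sg. It had 511 CPM (477 to 547) in WT and 416 CPM (383 to 450.2) in KO there. It was 6.95-fold lower in Sc1 in WT (5.49 to 8.93) and 7.59-fold lower in KO (5.53 to 10.7), with 73.5 and 54.7 CPM. The low point was Sd1, with 3.40 CPM in WT (18 UMIs) and 1.72 CPM in KO (21 UMIs).

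Uchl1 did not stay at this low point. In Sd5 it had 20.1 CPM in WT (15.1 to 26.1) and 16.0 in KO (12 to 21), and from Sd4 to Sd10 it ran between 8.19 and 20.1 CPM. In both libraries the Sd5 interval lay above those of Sd1, Sd2 and Sd3. Sg alone held 62.7% of the Uchl1 UMIs in WT and 54.0% in KO.

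Kit, on chromosome 5 from 75574916 to 75656722 of the plus strand (21 exons), was scarce, with 120 UMIs in the whole WT library and 128 in KO. Its level was 22.5 CPM in Sg of WT (15.9 to 31.1, 37 UMIs) and 33.8 CPM in Sg of KO (25 to 44.7, 49 UMIs). Sc1 followed with 12.7 CPM (13 UMIs) and 18.7 CPM (14 UMIs), and the intervals of Sg and Sc1 overlapped in both libraries. In Sc2, Sd1 and Sd2 no more than 3 UMIs were seen per library and cluster.

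Kit rose again in the round spermatids. In Sd4 it had 7.53 CPM in WT (5.19 to 10.6, 33 UMIs) and 5.18 CPM in KO (3.52 to 7.35, 31 UMIs), and in Sd2 it had 1 UMI in each library. The intervals of Sd4 and Sd2 did not overlap in either library. The UMIs came from many cells, 31 of 379 in WT (8.18%) and 30 of 520 in KO (5.77%), with at most 2 in a cell. In Sd7 the shares were 0.571% and 0.115%, at median depths of 5871 and 5673 UMIs against 8976 and 8911 in Sd4. Thinned to 1000 UMIs per cell, 1.58% and 1.15% of Sd4 cells had a Kit UMI, against 0.429% and 0% in Sd7. In WT these were 6 and 3 cells, with overlapping intervals (0.58 to 3.41 and 0.088 to 1.25). The 0 of 871 Sd7 cells in KO allow 0.344% by the floor of 3 cells and 0.423% by the exact interval. A shortened Kit transcript that starts inside the gene is known from haploid spermatids, and counts per gene do not separate it from the full-length form. Sd4 held 27.5% of the Kit UMIs in WT and 24.2% in KO, nearly as many as Sg in WT, which held 30.8% and 38.3%.

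Stra8, on chromosome 6 from 34920163 to 34939344 of the plus strand (10 exons), was the gene most confined to the earliest cells. It had 850.1 CPM (806 to 896) in Sg of WT and 757 CPM (713 to 804) in Sg of KO. It then rose 5.04-fold to Sc1 in WT (4.75 to 5.36) and 5.88-fold in KO (5.49 to 6.30), to 4287 CPM (4161 to 4416) and 4453 CPM (4303 to 4606). In Sc2 it was at 2.11 CPM in WT and 4.95 CPM in KO, and the lower bound of the fall from Sc1 was 1231-fold in WT and 701-fold in KO. Sg and Sc1 together held 96.9% of all Stra8 UMIs in WT and 95.5% in KO.

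Of the few Stra8 UMIs seen later, some lay in a handful of cells and others were spread. Sd1 of WT had 11 UMIs in 11 cells. Sc2 had 15 UMIs in 6 cells of WT, of which 80.0% came from 3 cells, and 63 UMIs in 16 cells of KO, of which 58.7% came from 3 cells. At 1000 UMIs per cell, 0.205% of Sc2 cells in WT and 0.335% in KO had a Stra8 UMI. Sd7 to Sd10, which should lack the gene, gave 0 to 0.690%, so Sc2 was at the level of background. In Sd9 of KO, 38 UMIs lay in 10 cells and 76.3% of them in 3 cells.

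Dazl, on chromosome 17 from 50279395 to 50293636 of the minus strand (11 exons), was high in both early clusters. Its level was 1746 CPM (1683 to 1811) in Sg of WT and 1752 CPM (1684 to 1821) in Sg of KO. It was 1.49-fold higher in Sc1 in WT, at 2601 CPM (1.41 to 1.57 for the fold), and 1.41-fold higher in KO, at 2478 CPM (1.33 to 1.5). It then fell 11.8-fold to 221 CPM in Sc2 of WT (210.2 to 232) and 19.7-fold to 126 CPM in Sc2 of KO (120.0 to 132). From Sd1 on it ran between 6.47 and 23.7 CPM, and in the order of these 10 clusters by level each interval overlapped the next.

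Tex101, on chromosome 7 from 24668007 to 24676675 of the minus strand (7 exons), was the gene with the largest share of its UMIs in Sc2. It had 336 CPM (309 to 365) in Sg of WT and 416 CPM (384 to 451) in Sg of KO. It rose 9.34-fold to Sc1 in WT (8.53 to 10.2) and 7.07-fold in KO (6.46 to 7.75), to 3139 and 2944 CPM. Sc2 kept 849.5 CPM (828 to 871) and 599 CPM (585 to 612), which was above Sg in both libraries. Because Sc2 has many and deep cells, it held most Tex101 UMIs, 55.2% in WT and 62.6% in KO. From Sd1 on the level was between 11.3 and 53.7 CPM.

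**Figure D2:**
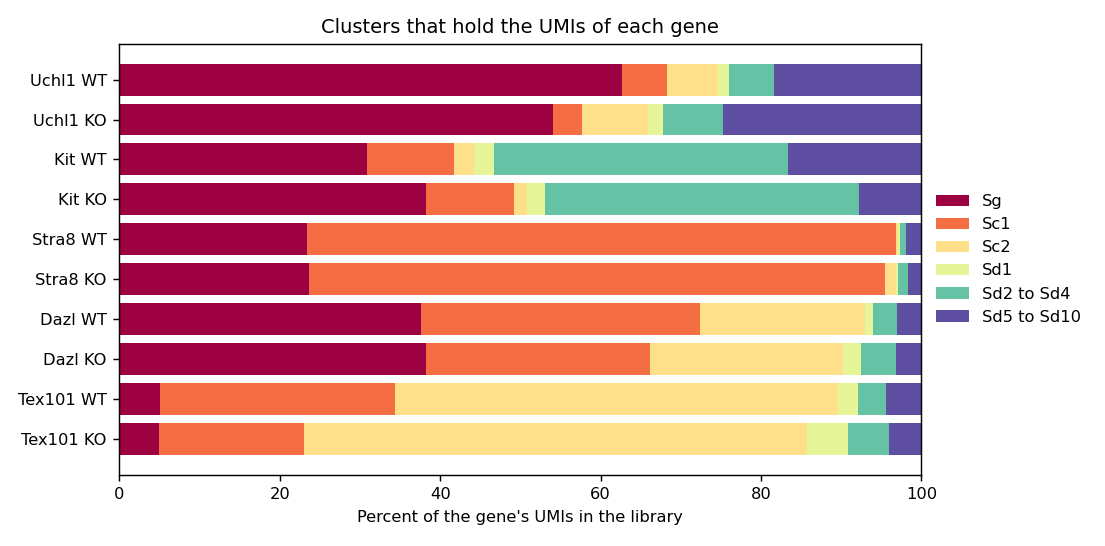
Percent of the UMIs of each gene that lay in each cluster or group of clusters, 1 bar per gene and library. Stra8 is almost wholly in Sg and Sc1, and Tex101 mostly in Sc2. Kit is mainly in Sg and the spermatids Sd2 to Sd4, with smaller parts in Sc1 and Sd5 to Sd10.

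The genes with the most similar course were ranked by Pearson's r of log2(CPM + 1) over the 13 WT clusters, among 4606 other genes with at least 200 WT UMIs (4607 for Kit). The clusters of a library share its preparation and differ in depth, and r is given as a description. Closest to Stra8 were Inpp5f (r = 0.97 in WT, 0.96 in KO), Kmt2a (0.97, 0.96) and Map7d2 (0.96, 0.96). Closest to Dazl were Ncl (0.99, 0.98), which encodes the nucleolar protein nucleolin, Nucks1 (0.99, 0.98) and Esf1 (0.98, 0.97). Tex101 was followed most closely by 4930447C04Rik (0.98, 0.97), Iqcb1 (0.97, 0.98) and Cnih4 (0.97, 0.98). Uchl1 had D10Wsu102e (0.93, 0.73), the DNA methyltransferase gene Dnmt3a (0.93, 0.79) and Crabp1 (0.92, 0.83), which encodes a protein that binds retinoic acid in the cell. Kit had Htatsf1 (0.94, 0.89), Gnai1 (0.92, 0.91) and Eif3a (0.92, 0.83). Between the 5 genes themselves, r in WT ran from 0.47 for Kit and Tex101 to 0.93 for Dazl and Tex101.

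Within a cluster the genes differed in how they were spread over cells. Each cell was thinned to 3000 UMIs for this comparison, and all cells of Sg and Sc1 had that many. Dazl was found in 94.5% of Sg cells in WT and 97.0% in KO, and its variance was 1.75 and 1.84 times its mean. Uchl1 was found in 69.9% and 62.9%, and Tex101 in 51.6% and 55.0%. Kit was found in 5.94% and 8.42%.

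Stra8 differed from the others in that it was strong in some cells and not found in the rest. In Sg, 47.5% of WT cells (45.0% of KO cells) had a Stra8 UMI, the variance was 8.11 times the mean (9.24 in KO), and the top 10% of cells held 56.2% of the UMIs (63.4% in KO). In Sc1, where the mean level was highest, 43.1% of WT cells and 55.6% of KO cells had no Stra8 UMI of 3000. At the same time 28.5% of WT cells and 27.3% of KO cells had 20 or more, and the highest cell had 79 and 57. The variance in Sc1 was 21.5 and 25.8 times the mean, against 2.22 and 2.03 for Dazl in the same cells. Without thinning, 62.3% of Sc1 cells in WT (53.4 to 70.7) and 46.5% in KO (36.4 to 56.8) had a Stra8 UMI, against 0.719% to 3.26% in Sd7 to Sd10, where the median cell held 4978 to 5871 UMIs. Every Sc1 cell had a Tex101 UMI without thinning, 130 of 130 in WT and 99 of 99 in KO.

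**Figure D3:**
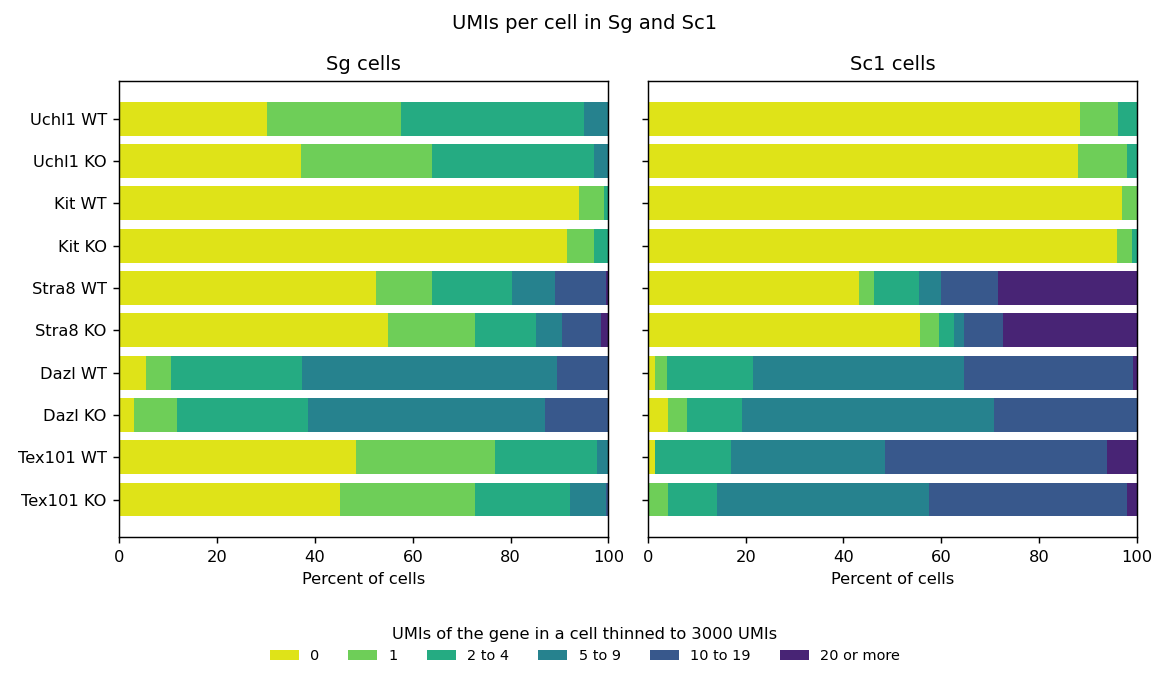
Percent of Sg cells (left) and Sc1 cells (right) with 0 to 20 or more UMIs of each gene, after each cell was thinned to 3000 UMIs. Dazl and Tex101 fill nearly all Sc1 cells, while Stra8 has many Sc1 cells at 0 and many at 20 or more in both libraries.

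To see which cells carried Stra8, cells were grouped by their Stra8 UMIs of 3000 into 0, 1 to 9, and 10 or more. These limits were chosen after the values were seen, and the groups are ranges of 1 gene, not cell types. In Sc1, 52 WT cells and 35 KO cells had 10 or more, 22 and 9 had 1 to 9, and 56 and 55 had 0. The median UMI count per cell was 6665 and 7113 in the first of these and 6069 and 6066 in the last.

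Uchl1, Crabp1, Hells and Ccne2 were higher in Stra8-rich Sc1 cells. They and the other genes given by Stra8 group were picked after their values were seen, so no theme is read from them. Uchl1 was found in 26.9% of WT cells with 10 or more Stra8 UMIs (14 cells) and in 0 of 56 WT cells without Stra8, which allows a share of up to 5.36% by the floor of 3 cells and 6.38% by the exact interval. In KO the shares were 22.9% (8 cells) and 5.45% (3 cells). Crabp1 was found in 21.2% and 1.79% in WT, and in 20% and 0 of 55 cells in KO. Hells, a chromatin remodeller of replicating cells, had 4.37 UMIs per cell (3.82 to 4.97) in Stra8-rich WT cells and 1.21 (0.943 to 1.54) in WT cells without Stra8, and 4.14 and 1.13 in KO. Ccne2, a cyclin of entry into S phase, had 1.54 and 0.38 in WT, and 2.26 and 0.35 in KO.

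Sycp3 and Sycp1, which encode parts of the synaptonemal complex that pairs the chromosomes in meiotic prophase, were higher in Sc1 cells without Stra8. Sycp3 had 16.8 UMIs per cell (15.7 to 17.9) in WT cells without Stra8 and 6.5 (5.83 to 7.23) in Stra8-rich ones, and 18.3 and 7 in KO. Sycp1 had 17.8 and 7.96 in WT, and 18.8 and 7.06 in KO. Smc1b, the meiotic cohesin gene, went the other way, with 3.63 and 8.48 in WT and 2.93 and 7.86 in KO. Other genes of the spermatogonial lists went both ways. Foxo1 followed Uchl1, found in 17.3% of Stra8-rich cells in WT (9 cells) and 8.57% in KO (3 cells, the floor). Without Stra8 it was found in 0 of 56 and 0 of 55 cells. Id4 and Tuba3b did not follow Uchl1. Id4 had 0.30 UMIs per cell without Stra8 and 0.019 in Stra8-rich cells in WT, and 0.29 and 0 in KO. Tuba3b had 0.98 and 0.65 in WT, and 1.02 and 0.83 in KO, with overlapping intervals. Tex101 was a little higher without Stra8, at 11.5 (10.6 to 12.4) against 8.62 (7.84 to 9.45) in WT and 9.73 against 7.74 in KO. Dazl was close between the groups, at 8.48 (7.74 to 9.28) without Stra8 and 8 (7.25 to 8.81) in Stra8-rich WT cells, and 7.87 and 7.23 in KO. The cells of 1 library are not replicates. Cells without Stra8 and Stra8-rich cells stood in the same order in WT and KO for each gene given here. These genes were picked after their values were seen, so the shared order gives no support.

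In Sg, Uchl1 and Crabp1 were again higher in cells with much Stra8, and Prss50 was lower. The 24 WT cells and 19 KO cells with 10 or more Stra8 UMIs had more Uchl1, with 2.79 UMIs per cell (2.16 to 3.55) in WT and 2.47 (1.82 to 3.29) in KO, against 1.45 and 1.05 in cells without Stra8. Crabp1 was at 2.13 and 1.79 in these cells, and at 1.08 and 0.89 in cells without Stra8. Prss50, a serine protease gene of the testis, was at 0.083 and 0.16 per cell, with 2 and 3 UMIs in all, against 0.37 and 0.42 in cells without Stra8. The cells with 1 to 9 Stra8 UMIs had the highest of the 3 means, 0.68 and 0.63. In Sc1 the same gene was at 3.46 and 3.83 in the Stra8-rich cells and at 1.46 and 1.20 in those without. In the middle group of Sc1 it was at 4.5 in WT and 2.56 in KO, so it followed no single order with Stra8.

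**Figure D4:**
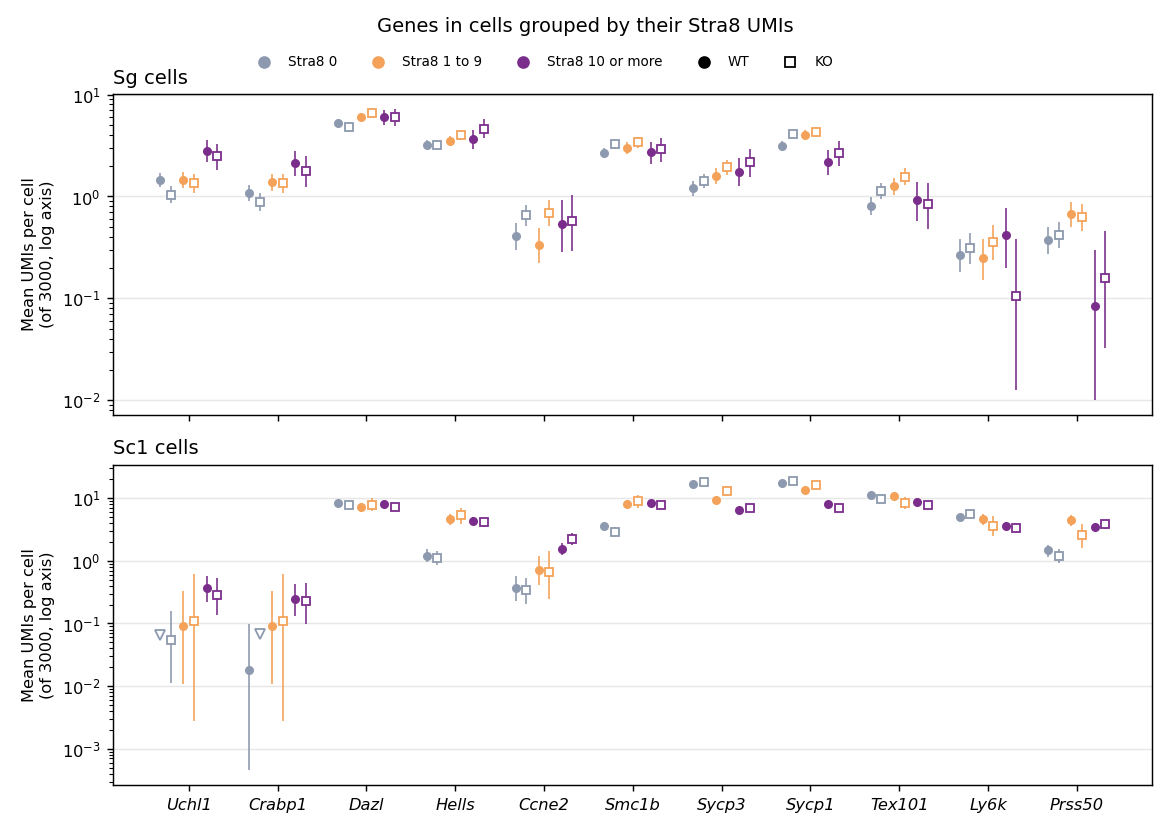
Mean UMIs per cell of 11 genes (log axis, cells thinned to 3000 UMIs, 95% Poisson interval) in Sg and Sc1 cells with 0, 1 to 9, or 10 or more Stra8 UMIs; filled circles are WT, open squares KO, and an open triangle is the upper bound where no UMI was seen. In Sc1, Uchl1, Crabp1, Hells, Ccne2 and Smc1b are higher with Stra8 and Sycp3 and Sycp1 higher without it, in both libraries.

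KO was compared with WT in Sg, Sc1, Sc2 and Sd1, as the log2 ratio of CPM with a prior of 1 UMI. A ratio was read with at least 50 UMIs over both libraries, and a difference was called at 1.5-fold. No test can be made between single libraries. In Sg 0 of 5 genes were called, where 2.82% of 3694 genes were higher in KO and 2.84% lower (5.66% either way). In Sc1 0 of 4 were called, where 3.65% of 3012 genes were higher and 3.25% lower (6.91% either way). In Sc2, of 4 genes 1 was higher (0.728% of 4396 genes) and 2 were lower (4.91%), with 5.64% of all genes called either way. In Sd1 0 of 2 were called, where 1.33% of 4272 genes were higher and 1.87% lower (3.21% either way).

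**Figure D5:**
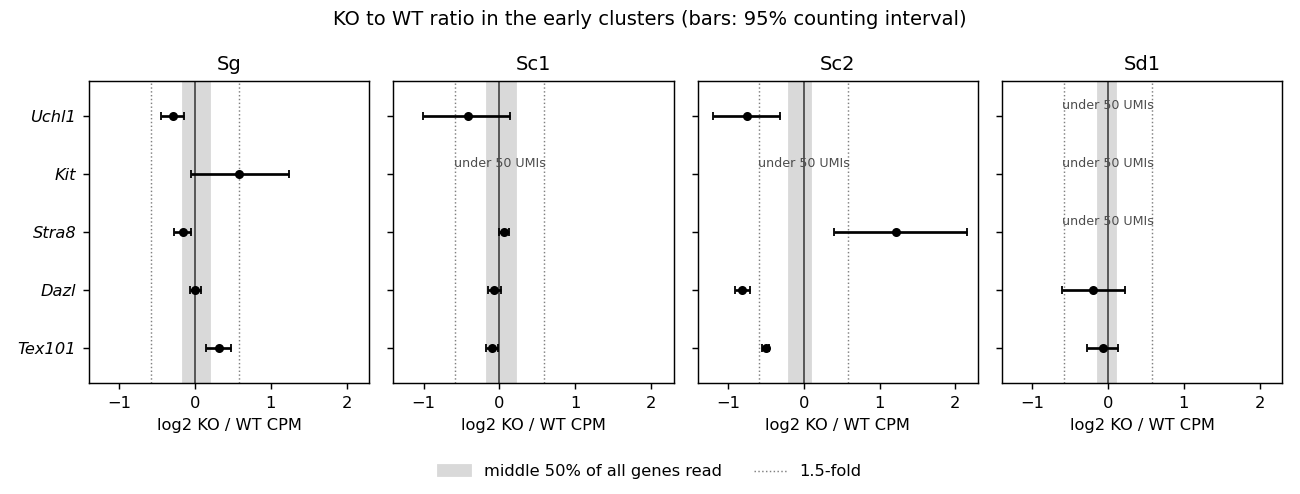
Log2 ratio of KO to WT for each gene in Sg, Sc1, Sc2 and Sd1 with its 95% counting interval; the grey band holds the middle 50% of all genes read and dotted lines mark 1.5-fold. All points in Sg and Sc1 lie within 1.5-fold, while Dazl and Uchl1 lie below it and Stra8 above it in Sc2.

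In Sg, Dazl had a ratio of 0.00 (-0.07 to 0.08) and Stra8 of -0.17 (-0.28 to -0.05), which was -0.41 without the 5% deepest cells and -0.02 without the 25% of cells richest in spermatid RNA. Uchl1 was lower in KO at -0.30 (-0.45 to -0.14), and Tex101 higher at 0.31 (0.14 to 0.48). Kit was at 0.58 (-0.06 to 1.24), just under the 1.5-fold limit and with 0 inside its interval. Kit passed the limit at 0.77 as the mean of single-cell CPM and at 0.81 without the 5% deepest cells, and was at 0.37 without the cells richest in spermatid RNA. The interval lay above 0 for 1 gene and below 0 for 2, as it did for 11.9% and 8.61% of all genes read in Sg. The middle 50% of those genes lay between -0.16 and 0.20.

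In Sc1, Stra8 was at 0.05 (-0.01 to 0.12), Dazl at -0.07 (-0.16 to 0.02), Tex101 at -0.09 (-0.17 to -0.01) and Uchl1 at -0.42 (-1.01 to 0.14). The ratio of Stra8 was -0.09 without the deepest cells and 0.17 without those rich in spermatid RNA, so its sign was not settled. The interval lay above 0 for 0 of the 4 genes and below 0 for 1, as for 9.2% and 7.57% of all genes read. The mean level of Stra8 was close between the libraries, while its share of cells with a UMI was lower in KO. Of the Sc1 cells, 56.9% in WT and 44.4% in KO had a Stra8 UMI of 3000, and those with 10 or more carried 27.5 UMIs each in WT (26.1 to 29.0) and 32.5 in KO (30.7 to 34.5). The intervals of the unthinned shares overlapped. The intervals of the UMIs per cell cover counting error only and leave out the spread between cells. That spread was wide, as the variance of Stra8 over Sc1 cells was 21.5 times its mean in WT and 25.8 times in KO.

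Of these 4 clusters, Sc2 alone had genes past 1.5-fold in the summed UMIs. The KO level of Dazl was 0.571 times that of WT, a log2 ratio of -0.81 (-0.91 to -0.71) from 1571 UMIs in WT and 1604 in KO. Uchl1 was at -0.75 (-1.20 to -0.32) and Tex101 at -0.50 (-0.55 to -0.46), short of the 1.5-fold limit, which Tex101 passed at -0.59 without the cells rich in spermatid RNA. The interval lay above 0 for 1 gene and below 0 for 3, as for 18.5% and 24.9% of all genes read. Uchl1 was found in 1.02% of Sc2 cells in WT and 0.893% in KO at 1000 UMIs, against 1.08% to 2.72% in Sd7 to Sd10. Those clusters are part of its second rise, so they do not set a background for it. In summed UMIs Sc2 had 12.1 CPM in WT (9.68 to 14.9) and 7.15 CPM in KO (5.76 to 8.78). Sd1 had 3.40 (2.02 to 5.38) and 1.72 (1.06 to 2.63). Dazl was found in 33.8% of Sc2 cells in WT and 26.1% in KO at 3000 UMIs, against 0.286% to 1.61% in Sd7 to Sd10 at 1000 UMIs, where Sc2 had 17.4% and 12.2%. Stra8 was at 1.21 (0.40 to 2.15), on the 15 and 63 UMIs in few cells described above. Genes outside the 5, picked here after their values were seen, went both ways in Sc2, with Sycp1 at -0.45 (-0.49 to -0.41), Hells at -0.49 (-0.67 to -0.30) and Prss50 at -1.51 (-2.30 to -0.79). Sycp3 was at -0.02 (-0.06 to 0.02), Smc1b at -0.17 (-0.22 to -0.11), and Cenpf at 0.17 (0.09 to 0.25). In Sd1 the intervals of both genes read, Dazl at -0.20 and Tex101 at -0.07, held 0, and those of 14% of all genes lay above and of 15.8% below it. Outside these 4 clusters Dazl was at -1.50 (-2.33 to -0.77) in Sd5, on 51 UMIs in WT and 21 in KO, and at -0.75 (-1.16 to -0.35) in Sd3, on 109 and 101. Sc2 held 9.44% of the WT cells (8.66 to 10.3) and 12.4% of the KO cells (11.6 to 13.2), and whether the make-up of Sc2 has a part in the lower Dazl and Uchl1 was not tested.

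Over all cells of a library the 5 genes were lower in KO, and here fewer cells of a type and less RNA per cell cannot be told apart without the clusters. The log2 ratio was -0.93 for Stra8, -0.84 for Uchl1, -0.77 for Dazl, -0.48 for Kit and -0.42 for Tex101. When the WT level of each cluster was kept and only the cluster shares of KO were put in, the ratio was -0.91 for Stra8, -0.52 for Uchl1, -0.49 for Dazl, -0.35 for Kit and -0.07 for Tex101. For Stra8, the shares of UMIs from Sg and Sc1 in each library therefore gave nearly the whole difference in numbers.

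The wider gene lists of these stages were read with the same rule. They were chosen with earlier results of these data known, so the counts by highest cluster are a description. Among all genes with at least 50 UMIs in each library, 11.2% were highest in Sg and 10.5% in Sc1 in both libraries. Of 40 genes for meiotic entry and prophase 21 had 1 possible row, and 16 of them were highest in Sc1 in both libraries, with 0 in Sg. Their median KO to WT ratio was 0.24 in Sg over 15 genes (Smc1b 0.30, Sycp3 0.27, Sycp1 0.14) and -0.06 in Sc1 over 20, against 0.02 and 0.02 for all genes read. Of 8 genes of differentiating spermatogonia, 3 were highest in Sg in both libraries and the median was -0.04 in Sg, with Crabp1 at -0.27 (-0.44 to -0.11). Of 7 retinoic acid genes, 5 were read in Sg with a median of -0.27, of which 0 were called higher and 1 lower. Among the 15 meiotic genes read in Sg 1 was called higher and 0 lower. Among the 8 genes of differentiating spermatogonia 0 were called higher and 1 lower. Of all genes read in Sg, 2.82% were called higher and 2.84% lower. Of the 21 mitosis genes the median was 0.24 in Sg, with Smc4, a condensin gene, at 0.31 (0.23 to 0.38) and Cenpf, a kinetochore gene, at 0.24 (0.14 to 0.33). In Sg 0 of these 21 were called, against 5.66% of all genes read either way. The 12 DNA replication genes had 0.09 in Sg and -0.27 in Sc1.

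The 11 partners of DAZL and MEIOC in RNA binding had a median of 0.06 in Sg, among them the poly(A)-binding protein gene Pabpc1 at -0.13 and Fxr1 at 0.25. The 7 genes of KIT signalling had 0.06 (Nras 0.03, Map2k2 -0.16). The 10 TEX101 partners and lipid-anchored surface proteins read in Sg had -0.06 (Ly6k 0.29, Dpep3 -0.14, Clgn 0.32), and the 10 ubiquitin genes -0.11 (Ubb -0.11, Rps27a -0.28). In the TEX101 list and in the ubiquitin list, 0 genes were called higher and 1 lower in Sg. In the DAZL and MEIOC list and in the KIT list, 0 were called either way. The shares over all genes read in Sg were 2.82% higher and 2.84% lower. Of the DMRT list Dmrtb1 was at -0.07 (-0.30 to 0.17) in Sg. Of the undifferentiated list Foxo1 had 113 and 75 UMIs in Sg (-0.41, -0.85 to 0.02), while Id4 was highest outside Sg, with 24.4 and 25.5 CPM in Sg and 209 and 184 CPM in Sc2. Of the Rhox list, Rhox8, which also stands in the Sertoli list, had 12 UMIs in Sg of WT and 0 in KO, under the count needed for a ratio.

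For the other 5 genes the row could not be fixed. Dmrt1, a transcription factor that holds spermatogonia back from meiosis, had 3 possible rows with 5 to 366 UMIs in Sg of WT, and Meioc, whose protein keeps cells in meiotic prophase, had 3 with 13 to 216. Rhox13, a homeobox gene of germ cells, and Mki67, a marker of dividing cells, had 13 possible rows each, and Sohlh1, a transcription factor of spermatogonia, had 24. No row was chosen by its values, so no level is given for these genes.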

How the data were processed

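Single testis cells of 1 WT and 1 KO library were analysed. The authors trimmed reads with fastp 1, aligned them to mm10 with STAR 2.5.3a, counted them on Ensembl 92 genes with featureCounts 1.6.2 and collapsed UMIs. The deposited matrix holds raw UMI counts of the cells kept in Seurat 3.2.3. The deposited cell table gives the authors' cluster, UMI and gene counts and the percent of mitochondrial UMIs per cell. Its totals corrected by sctransform 0.3.1 were not used. The filter limits and any removal of doublets are not given in the sources used here, and no cell was left out and no doublet caller run.

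The 30 mitochondrial symbols were matched in order to rows whose UMIs give the mitochondrial percent, exactly in 12408 of 12408 cells. Only rows seen in under 5 cells could lack a symbol. Symbols with 1 possible row were used (5476, with 86.9% of UMIs). Without that rule there are 2648, which still include Stra8, Dazl and Tex101 but not Kit and Uchl1. UMIs were summed per library and cluster. Sums have exact Poisson, shares exact Clopper-Pearson, and ratios exact conditional binomial 95% intervals, all for counting error only. Thinning drew 1000 or 3000 UMIs per cell. Depth was 1642098 (WT) and 1448272 (KO) UMIs in Sg, and 1020887 and 749010 in Sc1.

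The members and lists were chosen with earlier results of these data known. Named genes are the members, from each list up to 3 genes with most UMIs in Sg and Sc1, the 3 closest genes per member, Tex13a, and Prm1, Prm2, Tnp1 and Tnp2. Genes named for cells with much Stra8 are among these. The lists were written by hand. Some genes that this rule names are not reported here. On simulated counts for KO against WT in Sg (5476 genes), 100% of 200 genes changed 2-fold had the right sign, and 2.35% of unchanged genes passed 1.5-fold. These counts were drawn from a shared profile with counting error only, without spread between cells or libraries. The changed genes were picked among genes with more expected UMIs than a ratio needs. The simulated rates therefore do not carry over to real libraries or to scarce genes. Python 3.11.15, numpy 2.4.6, scipy 1.17.1, pandas 2.3.3 and matplotlib 3.10.9 were used. Promoters are from RefSeq (GRCm38.p6) and gene positions from GENCODE vM21 (GRCm38, the same build as mm10).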

Additional observations from a re-analysis of the deposited data

Results flagged for a closer look

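Stra8 and Tex101 stood out because their KO to WT ratio had opposite directions in different clusters, with intervals that excluded 0 on both sides. Each genotype has 1 library, and these differences were not tested. For Stra8 the log2 ratio was -0.17 in Sg and 1.21 in Sc2, a difference of 1.38, and 1.02 in Sd9, a difference of 1.19. The Sc2 value rests on 63 UMIs in KO, of which 58.7% lay in 3 cells, and the Sd9 value on 38 UMIs in KO, of which 76.3% lay in 3 cells. Stra8 in Sc2 was at the level of background, Sd9 is among the clusters that set that level, and the Sg value was -0.02 without the cells richest in spermatid RNA. For Tex101 the ratio was 0.31 in Sg and -0.09 in Sc1, a difference of 0.40. Sc2 was at -0.50, a difference from Sg of 0.81. Sd5 was at -0.90, a difference of 1.21, on 95 UMIs in WT and 60 in KO. Sd10 was at -1.06, a difference of 1.36, on 30 UMIs in WT and 20 in KO, of which 50% and 40% lay in 3 cells.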

How the results depend on the processing

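Of 243 recomputed values 209 stayed within the limits set for them, 34 moved and 0 reversed, and of 105 ratios 97 stayed inside the counting interval and 99 kept their sign. The mean of single-cell CPM gave -0.44 for Tex101 in Sc2 and 1 gene, Kit, called higher in Sg. Thinning to 3000 UMIs gave -0.20 for Tex101 in Sc1 and 0.16 in Sd1. It also gave 3 genes with a larger share of cells in KO in Sc1 (0 at 1000 UMIs). In Sc2 thinning gave 0 genes higher and 1 lower, because fewer genes were read. There Stra8 kept 3 UMIs in WT and 16 in KO, and Uchl1 kept 19 and 18, under the count needed for a ratio. Their thinned ratios were 1.44 for Stra8 and -0.93 for Uchl1. Leaving out the 5% deepest cells gave Stra8 -0.41 in Sg and -0.086 in Sc1, and 1 gene higher in Sg. Leaving out the 25% of cells with most spermatid RNA gave Stra8 -0.015 in Sg and 0.17 in Sc1, and Tex101 -0.59 in Sc2. A minimum of 200 UMIs gave 0 higher and 1 lower in Sc2, a minimum of 10 gave 2 lower in Sd1 and no minimum 3; here fewer or more genes are read. A 2-fold limit gave 0 lower in Sc2, where the same genes are read and fall short of it. The cause of the other shifts was not tested. The sign of the ratio of Stra8 in Sc1 thus depends on which cells are kept. No paired analysis was possible because each genotype has 1 library and the labels give no replicate numbers. Kit and Uchl1 in the later clusters, and Stra8 in Sc2, rest on few UMIs.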
